A study of Fragaria x ananassa with 6 samples.

Results

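FaSKP1 and FaFbox1 are the 2 gene symbols of the strawberry array that name parts of SCF-type ubiquitin ligases. They were selected by symbol, as array spots named FaSKP1 or FaFbox1 that are not controls, and make 2 of 35118 features and 2 of 45 gene symbols on the array. Both were bright enough to be tested, and no other symbol matched a list of ubiquitin ligase names (SKP1, cullin, RBX, F-box and known F-box proteins). The list could match symbols only, and 34797 of the 35118 features are gene models without a name on the array. Other SCF parts may be among those. In floral buds that overexpress FaPRE1 the FaSKP1 signal was below the control on each of the 3 arrays. Its fitted log2 difference was -2.26, about 4.79-fold lower, with an adjusted p of 0.059 in limma that missed 0.05, and 15 alternative settings gave -3.38 to -2.11. FaFbox1 had a smaller difference of -0.36, and its 95% interval reached 0.02.

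SCF ligases attach ubiquitin to proteins and so mark them for breakdown by the proteasome. SKP1 is the adaptor that joins the cullin scaffold to an F-box protein, and the F-box protein selects the target. In plants, such complexes perceive or relay auxin, jasmonate and gibberellin, and in Arabidopsis the F-box protein UFO takes part in the specification of floral organs. Plants carry families of SKP1-like and F-box genes, and which protein FaFbox1 targets is unknown from the material at hand. Whether either probe also binds transcripts of related genes was not tested.

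The buds came from the cultivated strawberry, Fragaria × ananassa, and total RNA was labelled. Control plants carried the empty vector and had buds of normal form. FaPRE1-OX plants had been transformed through Agrobacterium tumefaciens with the pK7WG2-FaPRE1 construct and had elongated floral buds. FaPRE1 encodes a small helix-loop-helix regulator of the PRE family. There were 3 samples per group, and each of 3 arrays on 1 slide carried 1 control and 1 FaPRE1-OX sample in different dyes. Whether the samples of a group were separate transgenic lines is not in the labels, so p-values describe the scatter among these 6 samples, part of which may be technical. Plant age and promoter are not given in the sources used here.

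Spots well above background made up 57.7% to 67.4% of each sample, and no spot was saturated (0 flagged). FaPRE1 itself was higher in FaPRE1-OX on every array, with log2 ratios of 2.50, 2.10 and 1.67. FaPRE1-OX 3 stood apart from its group. Over all tested features its normalized signals had a correlation of 0.959 with FaPRE1-OX 1 and 0.957 with FaPRE1-OX 2, against 0.996 between those. The tissue could be checked only in part. FaYabby, of a family active in lateral organs such as floral organs, was well above background in each of the 6 samples, and no symbol of the MADS family or LEAFY was on the array. Of the 4 symbols fixed for ripe receptacle, FaQR was well above background in every sample. Famyb10 and FaAAT3 were called well above background in none of the 6, and FaRGL1 in 1 control only.

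FaSKP1 was measured by 1 probe printed as 2 spots. Spot intensities are in scanner units before any normalization. On the first array, the control (Cy5) gave 803 and 942 at the 2 spots over a local background of 80 and 75.5. FaPRE1-OX on the same array (Cy3) gave 85 and 82 over 41 and 40. On the second array, where the dyes were swapped, the control (Cy3) gave 327 and 413 over 43 and 38, and FaPRE1-OX (Cy5) gave 128 and 156 over 88 and 69. On the third array the control (Cy5) gave 504 and 717 over 74 and 67, and FaPRE1-OX (Cy3) gave 78 and 114 over 42 and 40. The FaSKP1 spots thus stood 6.81 to 12.5 times over their local background in the controls and 1.46 to 2.85 times over it in FaPRE1-OX. Every one of these spots was called well above background by the scanner software. The FaPRE1-OX signal was therefore dim but measured, and the size of the fold depends on how the background is treated.

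FaFbox1 was measured by 1 probe with a single spot, so it has no duplicate within an array. Its spot gave 287 in control 1, 124 in control 2 and 194 in control 3, over backgrounds of 83, 43 and 72. In FaPRE1-OX it gave 98 in sample 1, 220 in sample 2 and 98.5 in sample 3, over backgrounds of 44, 77 and 48. FaFbox1 was dim in both groups, at 2.69 to 3.46 times background in the controls and 2.05 to 2.86 times in FaPRE1-OX, and all 6 values were called well above background.

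**Figure D1:**
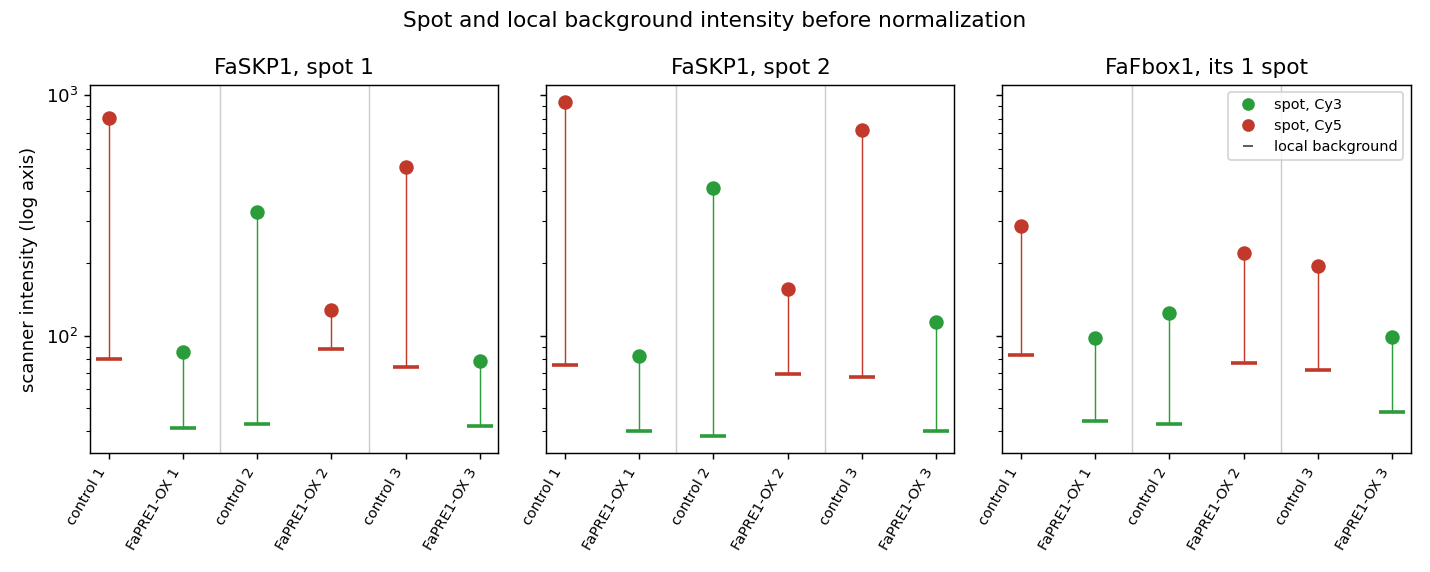
Scanner intensity of each FaSKP1 and FaFbox1 spot (points) and of its local background (bars), on a log axis, by sample; green is Cy3 and red is Cy5, and vertical lines separate the 3 arrays. The 2 FaSKP1 spots stood 6.81 to 12.5 times over background in the controls and 1.46 to 2.85 times in FaPRE1-OX.

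After background correction and normalization, the FaSKP1 log2 signal was 9.25, 9.01 and 9.21 in controls 1, 2 and 3. It was 6.92, 6.60 and 7.32 in FaPRE1-OX 1, 2 and 3. The means were 9.16 ± 0.13 (SD, n = 3) in control and 6.95 ± 0.36 (SD, n = 3) in FaPRE1-OX. All FaPRE1-OX values lay below all controls, as they did for 25.1% of the 23384 features tested (the reverse held for 20.7%). In bulk tissue, less FaSKP1 RNA per cell and fewer cells that express it cannot be told apart.

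The FaFbox1 log2 signal was 7.75, 7.48 and 7.58 in controls 1, 2 and 3. It was 7.06, 7.33 and 7.14 in FaPRE1-OX 1, 2 and 3, with means of 7.60 ± 0.13 (SD, n = 3) and 7.18 ± 0.14 (SD, n = 3). The groups did not overlap here either, but FaPRE1-OX 2 and control 2 were close to each other, and those 2 samples shared the array with swapped dyes. With the 2 samples of an array kept together, an exact sign-flip permutation test (8 flips, two-sided) gave p = 0.25 for FaSKP1 and p = 0.25 for FaFbox1, the smallest p that 3 pairs allow.

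The position of each probe among all tested features, ordered by signal within a sample, shows the same contrast. FaSKP1 was brighter than or level with 61.9% to 65.4% of features in the controls, and with 22.3%, 11.4% and 31.5% in FaPRE1-OX 1, 2 and 3. FaFbox1 stood at 34.3% to 39.5% in the controls and at 26.1%, 32.4% and 27.0% in FaPRE1-OX. FaSKP1 thus stood above the middle of the signal order in every control and well below it in every FaPRE1-OX sample, and FaFbox1 was in the lower part throughout. Signals of different probes depend on their sequences as well as on RNA, so the order is that of probe signals and does not rank transcripts.

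**Figure D2:**
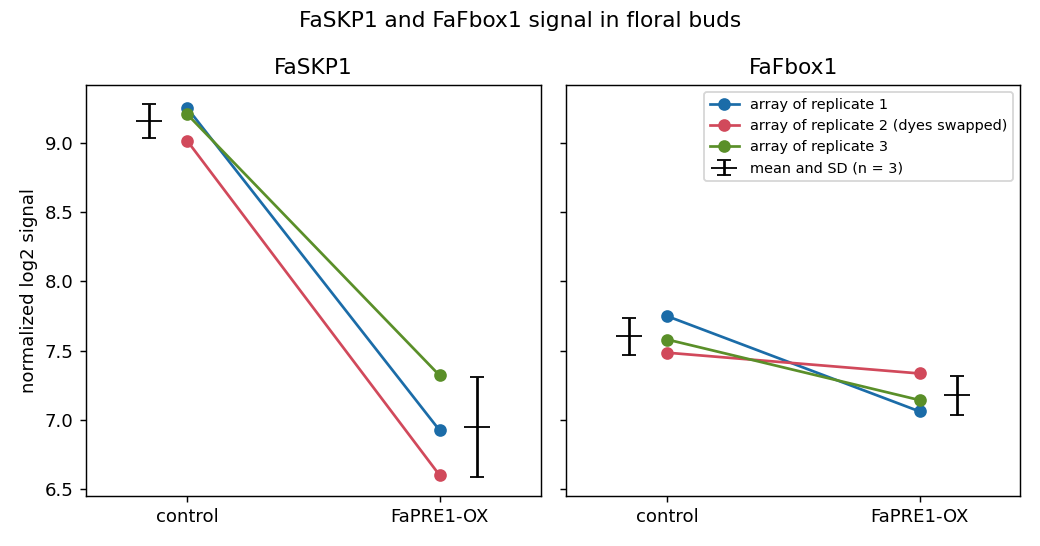
Normalized log2 signal of FaSKP1 and FaFbox1 in control and FaPRE1-OX buds; each line joins the 2 samples of 1 array, and black bars give the mean and SD (n = 3). The mean FaSKP1 signal was 9.16 in control and 6.95 in FaPRE1-OX, and that of FaFbox1 was 7.60 and 7.18.

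Within arrays, the FaSKP1 log2 ratio of FaPRE1-OX over control was -2.33, -2.41 and -1.89 on the first, the second and the third array, which is 5.02-fold, 5.33-fold and 3.70-fold lower. A ratio below 0 on all 3 arrays was found for 32.2% of features. The swapped dyes of the second array left the ratio close to that of the first. The 2 spots gave -2.20 and -2.45 on the first array, -2.43 and -2.40 on the second and -1.90 and -1.87 on the third. On the first array the gap between them was 0.25 on the log2 scale. This was larger than that of most probes printed in duplicate (median gap 0.082, 95th percentile 0.281). On the other arrays the gap was smaller than the median gap. These ratios include the offset of the background correction, which shrinks ratios of dim spots. Plain background subtraction with no normalization gave pairs of -4.0 and -4.4, -2.8 and -2.1, and -3.6 and -3.1 on the 3 arrays. These pairs still hold the difference between dyes, so their distance from the normalized ratios is not due to the offset alone. Processed signals of the scanner software gave -3.37 and -3.71, -3.44 and -3.41, and -3.55 and -2.71. Except for the processed signals on the second array, the spots lay further apart than with the offset. Before any normalization, the arrays as a whole leaned to the Cy5 channel, with median log2 ratios of FaPRE1-OX over control of -0.87, 0.99 and -0.65. Set against these medians, the raw intensities already placed FaSKP1 at -2.51, -2.37 and -2.03.

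FaFbox1 had log2 ratios of -0.69 on the first array, -0.15 on the second and -0.44 on the third. It was nearest to 0 on the array with swapped dyes. In raw intensities FaPRE1-OX was brighter than control there, with an unnormalized log2 ratio of 0.83. Set against the median of the array, that value was -0.17, and FaFbox1 was at -0.68 and -0.33 on the first and the third array. On the second array its direction therefore rested on correcting the difference between dyes.

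With a dye term, limma gave FaSKP1 a log2 difference of -2.26 ± 0.15 (SE, n = 3 arrays), with a 95% interval from -2.72 to -1.80. This is 4.79-fold lower in FaPRE1-OX, with an interval from 3.48-fold to 6.59-fold. The Benjamini-Hochberg adjusted p was 0.059 over 23384 features, so FaSKP1 did not pass 0.05 in this fit. No feature did, either lower (0%) or higher (0%). With limma at an unadjusted p under 0.05, 16.3% of features were lower and 12.6% higher, and FaSKP1 was among them with an unadjusted p of 0.000385. Without the dye term the difference was -2.21 ± 0.13, with an adjusted p of 0.00553 in limma, a fit in which 12.8% of features fell and 9.79% rose. The fit with the dye term has 1 residual degree of freedom and the fit without it has 2.

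For FaFbox1, limma with the dye term gave -0.36 ± 0.13 (SE, n = 3 arrays), with a 95% interval from -0.73 to 0.02 and an adjusted p of 0.187. The interval runs from 1.66-fold lower to hardly any difference. Without the dye term the difference was -0.43 ± 0.13 and the adjusted p was 0.0857 in limma. FaFbox1 passed 0.05 in neither fit, which does not show that it was unchanged. A difference of this size or larger in either direction was fitted for 36.5% of the features tested, against 1.75% for the difference of FaSKP1.

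The FaSKP1 ratio minus the FaFbox1 ratio was -1.64, -2.26 and -1.45 on the log2 scale on the 3 arrays, a mean gap of -1.78 ± 0.43 (SD, n = 3). The difference between the 2 log2 signals within a sample was 1.50, 1.53 and 1.63 in the controls and -0.14, -0.73 and 0.18 in FaPRE1-OX. The 2 groups did not overlap in this quantity. The exact permutation test over the 6 samples gave p = 0.1 for it, two-sided, and the sign-flip test within arrays gave p = 0.25, each the smallest p that the test allows. The FaSKP1 ratio was the lower one on every array, a gap that neither test can place past 0.05 with this number of arrays.

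Among the 36 gene symbols tested, FaSKP1 had the lowest fitted difference, and it ranked 3, 3 and 1 from the bottom on the 3 arrays. FaFbox1 ranked 16 from the bottom in the fit. Over all tested features FaSKP1 lay among the lowest 1.62% by fitted difference, and among the lowest 2.11%, 1.98% and 0.842% by ratio on the 3 arrays. The FaSKP1 ratio was closer to 0 on the third array than on the others, yet its place there was nearer the bottom. Ratios of all features spread less on that array (SD 0.54, against 0.75 and 0.74). There were 439 features at or below FaSKP1 on both of the first 2 arrays. Of these, 33.9% were also at or below it on the third array, their median ratio there was -1.54, and 8.2% had a ratio above 0.

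**Figure D3:**
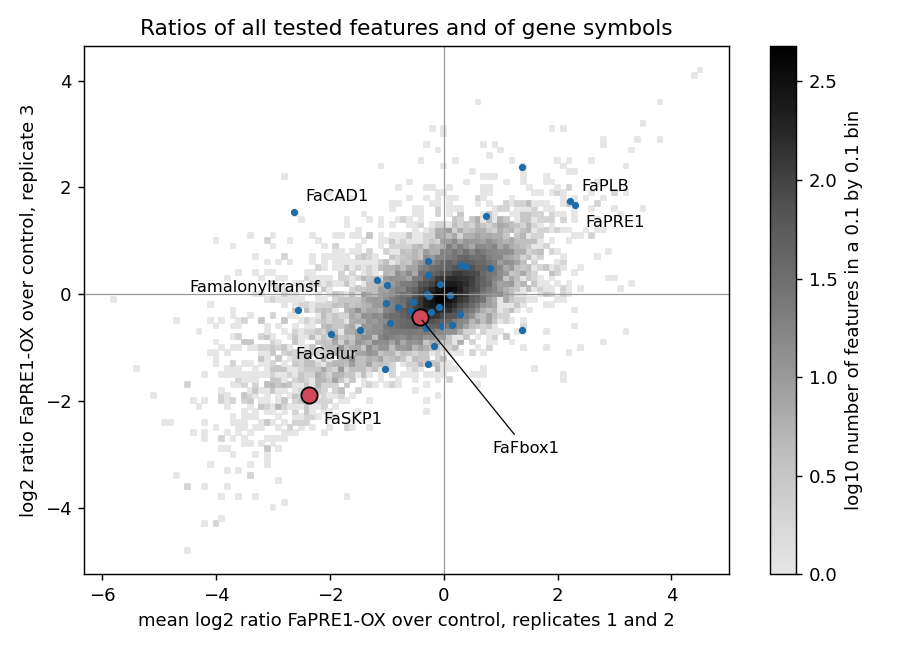
Log2 ratio of FaPRE1-OX over control, mean of the first 2 arrays (x axis) against the third array (y axis), for all 23384 tested features (grey, by number per bin), the 36 tested symbols (blue) and FaSKP1 and FaFbox1 (red). FaSKP1 lay far below 0 on both axes, whereas FaCAD1 had a negative mean on the x axis and a positive value on the y axis.

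No other tested symbol had ratios like those of FaSKP1. Likeness was taken as the root mean square difference between ratios over the 3 arrays. The nearest symbols were FaGalur, a galacturonate reductase of ascorbate synthesis, at 0.74 on the log2 scale, and Famalonyltransf, named as a malonyltransferase, at 0.93. FaGalur had ratios of -2.01, -1.94 and -0.74, and Famalonyltransf had ratios of -2.52, -2.60 and -0.30. Both had ratios near that of FaSKP1 on the first 2 arrays and much closer to 0 on the third. FaFbox1 was 1.82 from FaSKP1, and 4013 features were closer.

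Among gene models, which carry an identifier but no name on the array, 2 lay very near FaSKP1. The closest of all features was gene18505, with ratios of -2.34, -2.44 and -1.85 and a root mean square difference of 0.027. Its log2 signal was 10.4 ± 0.06 (SD, n = 3) in control and 8.15 ± 0.37 in FaPRE1-OX, and its fitted difference was -2.27 with an adjusted p of 0.059 in limma. The next was gene24122, with ratios of -2.27, -2.47 and -1.84, a root mean square difference of 0.054 and a fitted difference of -2.27. Annotations of gene models from outside the array were not used here. Whether either model is the same gene as FaSKP1 or a relative of it was therefore not tested. Within 0.25 of FaSKP1 there were 72 features, against 1346 within 0.25 of FaFbox1.

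The symbols nearest FaFbox1 were FaQR, a quinone oxidoreductase of furanone synthesis, at 0.14, and FaFHT, for flavanone 3-hydroxylase, at 0.21. FaQR had ratios of -0.63, -0.007 and -0.63, and FaFHT had ratios of -0.64, 0.20 and -0.34. In all 3 genes the ratio on the array with swapped dyes was higher than on the others. FaQR and FaFHT were picked for likeness in these same ratios, so the shared pattern follows in part from that choice. FaEF1, whose symbol names an elongation factor, had ratios of 0.06, 0.17 and -0.01 and a log2 difference of 0.10 ± 0.11 (SE, n = 3 arrays).

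The call of FaSKP1 depended on the fit, and its direction did not. Over 15 alternative settings its log2 difference ran from -3.38 to -2.11, and its adjusted p in limma from 7.27e-11 to 0.101, under 0.05 in 8 of them. In those 8 settings, from 401 to 13945 of the 23384 features tested passed 0.05. The largest difference came from the processed signals of the scanner software. Without replicate 3 the adjusted p was 7.27e-11, in a limma fit to 2 arrays where 13945 of 23384 features passed 0.05. Without replicate 1 or 2 the adjusted p of FaSKP1 was 0.0829 or 0.101. FaFbox1 was below the control in all 15 alternatives, with differences from -0.56 to -0.26 and adjusted p values from 0.00604 to 0.431, under 0.05 in 2. The lower of these p values came without replicate 3, and without replicate 1 or 2 the adjusted p was 0.431 or 0.178. The other pass came where the replicate block was a random effect, a setting in which 5797 of 23384 features passed.

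**Figure D4:**
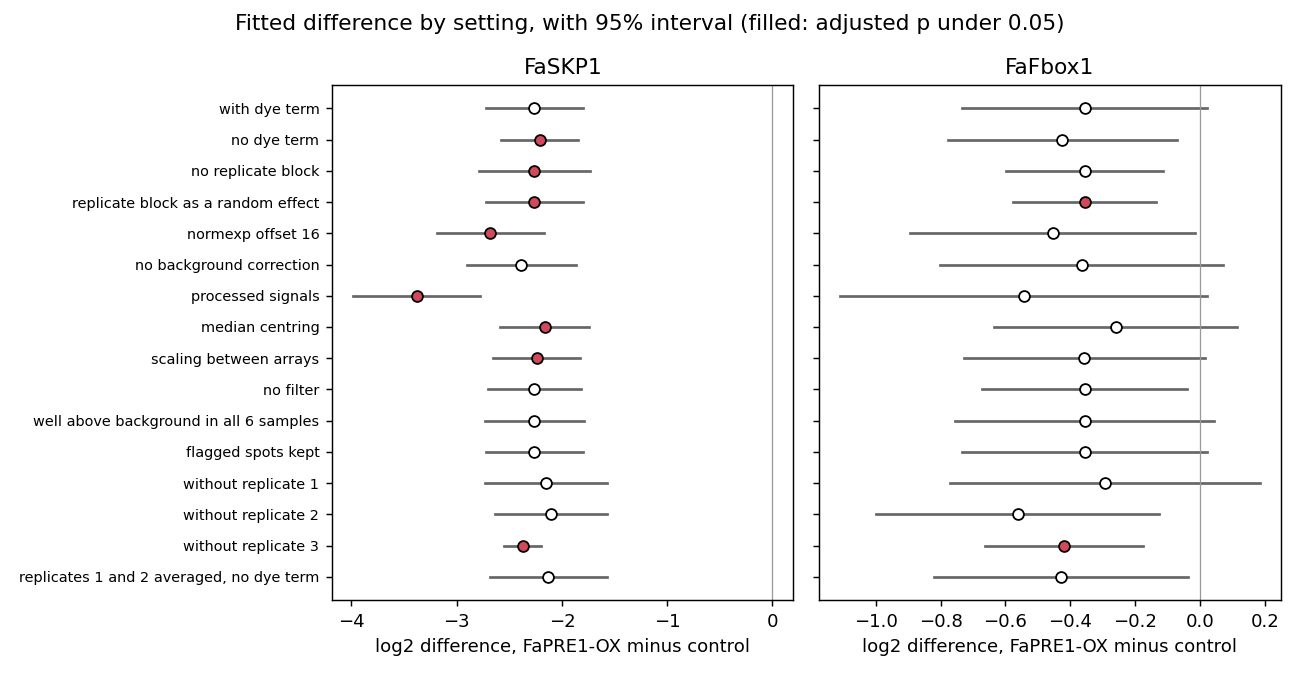
Log2 difference between FaPRE1-OX and control (x axis) for FaSKP1 and FaFbox1 in the fit with the dye term and in 15 alternatives; lines are 95% intervals, filled points have an adjusted p under 0.05, and the 2 panels have different scales. Every FaSKP1 interval lay below 0, and the upper limits for FaFbox1 ran from -0.18 to 0.18.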

How the data were processed

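The authors deposited linear intensity values of 2-colour scanner output, with spot, local background and processed intensity. The software was Agilent Feature Extraction, given as version 10.7 by the submitters' processing notes and as 10.7.3.1 by the file headers. The labels give the group, array and dye of each sample. Control was in Cy5 on the first and the third array and in Cy3 on the second. Of 62976 spots per array, 61657 were not controls. Titles of FaPRE1-OX samples carry the token PRE3, and the group follows the other labels.

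Median spot intensity was corrected with normexp and an offset of 50, which shrinks ratios of dim spots. Ratios were then normalized by loess within arrays. Both steps used limma 3.58.1 (R 4.3.3, statmod 1.5.0). Spots flagged as non-uniform or population outliers were left out, and spots were averaged per probe and feature. Testing required a probe well above background in 3 or more of the 6 samples. Ratios of FaPRE1-OX over control were fitted with limma (lmFit, eBayes, two-sided, Benjamini-Hochberg adjustment, threshold 0.05) with a dye term. Signals per sample are log2 values after loess and Aquantile normalization. The replicate number marks a shared array per the labels, and the ratio holds that pairing. Deviations from group means correlated at 0.168, 0.179 and 0.135 between samples of 1 array. The number of arrays limits the precision.

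The rule for named genes gave both members, FaPRE1 and FaEF1, the 2 nearest symbols of each member and the 2 nearest gene models of FaSKP1. FaCAD1 was named after its values were seen. The members and lists were chosen with earlier results of these data known. The ratio fits with and without the dye term, and the estimate of the correlation within a block, were tested on simulated data. Probe sequences were not used here.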

Additional observations from a re-analysis of the deposited data

How the results depend on the processing

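FaSKP1 stayed below the control and FaFbox1 did too in all 15 alternatives, and FaSKP1 had the lowest fitted difference of the tested symbols in all of them except without replicate 3, where it ranked 3 from the bottom. With the dye term, the FaSKP1 difference of -2.26 missed 0.05. It passed in limma at -2.26 with no replicate block, at -2.26 where the replicate block was a random effect, at -2.21 once the dye term was dropped, at -2.68 with an offset of 16, at -3.38 with processed signals, at -2.16 with median centring and at -2.24 with scaling between arrays. It ran from -2.37 to -2.11 when each replicate was left out, always without the dye term, and passed without replicate 3. Averaging the first 2 arrays as 1 replicate gave -2.13 and an adjusted p of 0.0969.

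FaFbox1 passed 0.05 where the replicate block was a random effect (-0.36) and without replicate 3. In those settings 5797 and 13945 of the 23384 features tested passed. Leaving out single replicates gave values from -0.56 to -0.29, the lowest without replicate 2. That setting drops the array with swapped dyes, so FaPRE1-OX was in Cy3 and control in Cy5 throughout. Group and dye cannot be told apart there, for either member. The gap between both members kept its sign, from -2.84 with processed signals to -1.54 without replicate 2. The sign-flip test of that gap (-1.78), which holds the pairing of samples on an array, was added after seeing the data.

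The count of features past 0.05 in limma, of 23384 tested, was 0 with the dye term (6766 at an unadjusted p under 0.05). It was 4248 with no replicate block, 5797 where the replicate block was a random effect, 5293 once the dye term was dropped, 923 with an offset of 16, 1428 with processed signals, 1107 with median centring and 401 with scaling between arrays. Leaving out single replicates gave counts from 0 to 13945, the highest without replicate 3. Dropping the dye term, or fitting the 6 samples with no block or a random one, raises the residual degrees of freedom by construction, and leaving out a replicate leaves fewer arrays. Otherwise the cause was not tested. The dim FaPRE1-OX spots of FaSKP1 and all spots of FaFbox1 limit the precision of their folds.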
